A study of Mus musculus with 150 samples.

Results

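The TAFA family consists of Tafa1 to Tafa5, formerly named Fam19a1 to Fam19a5, which encode small secreted proteins related in sequence to chemokines. The members were taken by name from the deposited count table, where all 5 are among 54082 genes, and the family was chosen by measured values, since the levels of Tafa4 in these cells were known from earlier results. The question followed here is which member is found in which kind of touch or pain neuron, how far the members exclude each other in single cells, and whether neurons of hairless and hairy skin differ in them. TAFA proteins are made mainly in the nervous system. Several members bind neurexins, a family of presynaptic adhesion proteins, and TAFA4 is known as a product of C-fibre low-threshold mechanoreceptors, the unmyelinated neurons that respond to gentle touch of hairy skin. Large myelinated A-fibre touch neurons carry the neurofilament heavy chain Nefh and receptor genes such as Ntrk3, Ntrk2 and Ret, whereas peptidergic pain neurons carry Calca, the gene of the neuropeptide CGRP.

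RNA of 150 single somatosensory neurons of CD1 mice (a wild-type outbred strain) had been sequenced with Smart-seq, which copies whole polyadenylated transcripts, with 1 cell in each library. Per the labels, 45 neurons were hairy, 1 carried both names and the rest were glabrous (hairless skin). The sources used here do not say how a neuron was assigned to its skin. The mice were untreated as far as the labels say, were of postnatal day 4 (14 glabrous and 19 hairy cells) or day 5 (90 glabrous and 26 hairy cells, and the cell with both names), and came from 10 litters, which are the replicates. Litters and skin types were unevenly spread over 2 plates, with 85 glabrous and 10 hairy cells on plate 1 and 19 glabrous and 35 hairy cells on plate 2. The 5 cDNA batches of the labels were uneven too. Every cell of litters L, M, O and P_Q was in the same batch, which held most hairy cells and few of the glabrous cells. The part of the batch in the skin type values was not tested. Total counts ran from 395811 to 1053854 per cell, so that 1 count was worth 0.949 to 2.53 CPM, the count scaled to the total of its library and the unit of all levels given here. A member is called expressed in a cell at 10 CPM or more. Each member is compared only with itself, because levels are not given per transcript length.

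The cells with 1 skin name were sorted with genes outside the family. At a gate of 500 CPM, Nefh set 46 Nefh-low cells apart from the Nefh-high cells, and the cells nearest to the gate lay at 377 and 623 CPM. A gate of 500 CPM for Calca divided the Nefh-high cells into 68 Calca-low and 35 Calca-high cells. Among the Nefh-low cells, 17 had Zfp521 of at least 50 CPM and are called C-fibre touch-like, of the others 15 had Calca of at least 500 CPM, and 14 had neither. Zfp521 encodes a zinc finger protein and marks C-fibre touch neurons. The nearest cells on either side of its gate lay at 35.8 and 71.7 CPM.

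The names were checked against marker genes that the gates had not used. Of 5 further C-fibre touch markers, P2ry1, a purinergic receptor gene, had a median of 278 CPM in the C-fibre touch-like cells, the cadherin gene Cdh9 of 173 CPM and Gfra2, a GDNF-family co-receptor gene, of 164 CPM. In Nefh-high Calca-low cells these medians were 12.7, 11.5 and 16.9 CPM, and in Nefh-low Calca-high cells they were 0, 0 and 6.55 CPM. The glutamate transporter gene Slc17a8 was low in the C-fibre touch-like cells, with a median of 2.68 CPM. Th, which encodes tyrosine hydroxylase and is a hallmark of these neurons in the adult, was also low in them, with a median of 5.35 CPM. Of 5 proprioceptor genes, Runx3 and Whrn had medians of 0 in the Nefh-high Calca-low cells, while Etv1 had a median of 193 CPM and Pvalb of 76.3 CPM. The sum of the 5 genes had its highest class median there, at 285 CPM, so that proprioceptors among these cells cannot be told apart from touch neurons by the gates. The 14 Nefh-low cells with neither marker were mixed. Their summed level of 5 pan-neuronal genes had a median of 1924 CPM, against 8743 CPM in Nefh-high Calca-low cells, haemoglobin genes reached 247269 CPM in 1 of them, and some expressed Mrgprd, the receptor gene of non-peptidergic pain neurons.

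Each member had its own distribution over these classes. Tafa2 had its highest class median in Nefh-high Calca-low neurons, and Tafa1 was found in Nefh-high neurons with and without Calca. Tafa4 was high in C-fibre touch-like neurons. Tafa3 was found in Nefh-high Calca-low and C-fibre touch-like neurons, and Tafa5 was expressed in most cells of every class but the mixed one. Over all 150 cells, Tafa1 was expressed in 52, Tafa2 in 82, Tafa3 in 45 and Tafa4 in 52, and Tafa5 was expressed in 86.7% of them.

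**Figure D1:**
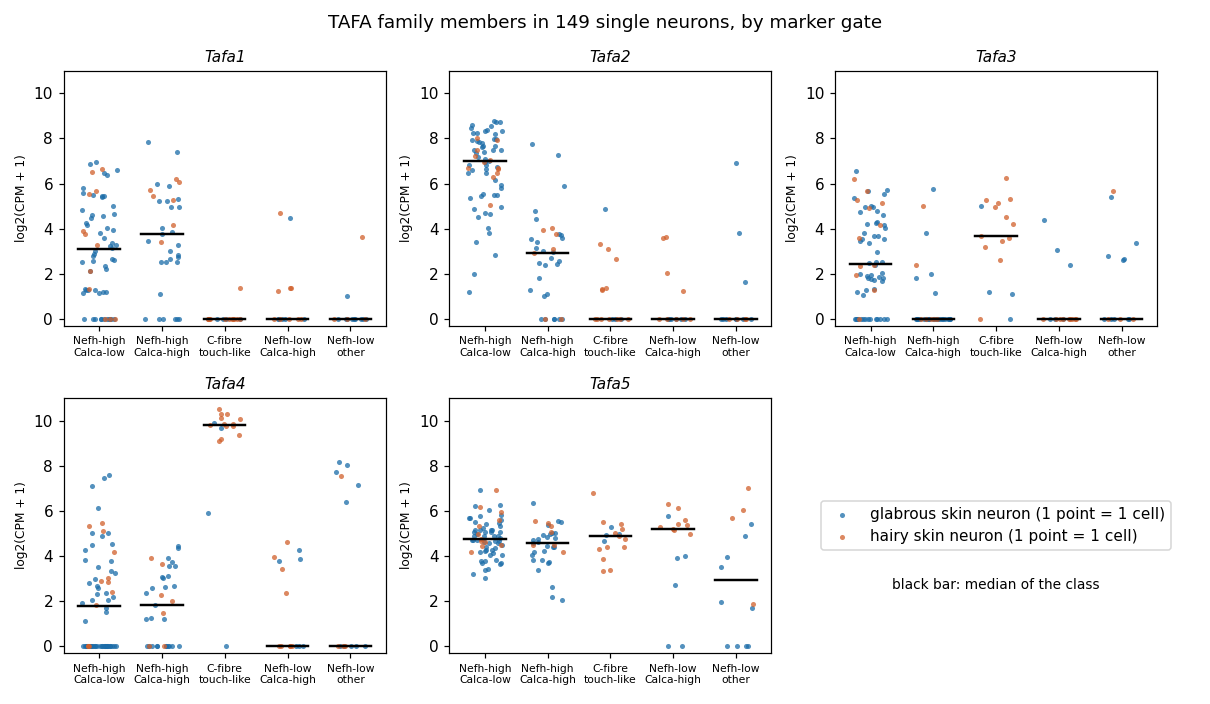
Level of each TAFA member in single neurons as log2(CPM + 1), by marker class, with 1 point per cell (blue, glabrous; orange, hairy) and the class median as a black bar. Tafa2 is high in Nefh-high Calca-low cells (median 125.4 CPM), Tafa4 in C-fibre touch-like cells (median 882 CPM), and Tafa5 is spread over all classes.

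Tafa1 and Tafa2 were compared first between Nefh-high and Nefh-low neurons, with counts summed per litter over 7 litters that held at least 2 cells of each kind. In this comparison edgeR's quasi-likelihood test with Benjamini-Hochberg adjustment called 2988 of 13135 genes, or 22.7%, at an adjusted p under 0.05, with 11.6% higher and 11.2% lower in Nefh-high neurons. Tafa1 and Tafa2 were among them, so that the call itself is a common one between these neurons. The 5 members had a median log2 change of 0.47, against -0.05 over all genes tested.

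Tafa2 ran from 76.2 to 241 CPM in the Nefh-high sums, with a median of 157, and from 0 to 14.2 CPM in the Nefh-low sums, with a median of 1.79. The groups did not overlap. Tafa2 rose by 5.63 on the log2 scale (SE 0.69, adjusted p = 0.000576 with edgeR) and was higher in 7 of 7 litters. Single cells showed the same division, since of the 81 expressing cells with 1 skin name 64 were Nefh-high Calca-low, 12 Nefh-high Calca-high and 5 Nefh-low.

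Tafa1 ran from 7.58 to 96.03 CPM in the Nefh-high sums, with a median of 15.01, and from 0 to 4.83 CPM in the Nefh-low sums, with a median of 0.253. These groups did not overlap either. The log2 change was 4.93 (SE 0.76, adjusted p = 0.00174 with edgeR), and the level was higher in 7 of 7 litters. Of the 17 C-fibre touch-like cells, 16 had no Tafa1 count at all and the other had 1.57 CPM. With glabrous cells alone, which left 3 litters, the adjusted p values became 0.0672 for Tafa1 (log2 change 4.94) and 0.0736 for Tafa2 (4.56) with edgeR. Tafa1 also missed the threshold at a Nefh gate of 1000 CPM (2.46, adjusted p = 0.0621), and Tafa2 missed it within plate 1 (4.48, adjusted p = 0.0501).

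Within the Nefh-high neurons Tafa1 and Tafa2 differed in where they were found, which was noticed in the values and is given as a description. Tafa2 had a median of 125.4 CPM in the 68 Calca-low cells (1.28 to 433) and of 6.70 CPM in the 35 Calca-high cells (0 to 212). The Calca-low cells were the higher ones in 8 of 8 litters that held both kinds, at 165 ± 106.7 against 31.7 ± 45.4 CPM (SD over litters, n = 8), with overlapping ranges. Tafa1 had a median of 7.49 CPM in Calca-low and 12.6 CPM in Calca-high cells. It was the higher one in Calca-high cells in 5 of these 8 litters, and 54.3% of the Calca-high cells expressed it, against 42.6% of the Calca-low cells. Tafa2 was thus the higher one in A-fibre cells with little Calca, and Tafa1 had no common direction over litters.

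The 68 Nefh-high Calca-low cells were further divided by the receptor gene in which a cell ranked highest among them. Ntrk3, the receptor gene of neurotrophin 3, led in 18 cells, Ntrk2, the receptor gene of BDNF, in 22, and Ret, the GDNF-family receptor gene, in 28. The skin types were uneven here, because all 18 Ntrk3-leading cells were glabrous while the Ntrk2-leading cells held 6 hairy cells and the Ret-leading cells another 6.

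Tafa2 followed this division in steps. Its median was 301 CPM in Ntrk3-leading cells (6.15 to 433), 179 CPM in Ntrk2-leading cells (42.4 to 322) and 57.8 CPM in Ret-leading cells (1.28 to 242). Over litters the mean was 287 ± 62.6 CPM (SD, n = 6), 161 ± 36.5 CPM (n = 6) and 77.3 ± 43.3 CPM (n = 7). Where a litter held both kinds, Ntrk3-leading cells were above Ntrk2-leading cells in 5 of 5 litters and above Ret-leading cells in 3 of 3, with no overlap in either case.

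The test set Ntrk3-leading cells against the other Nefh-high Calca-low cells in 5 litters. It called 46 of 12334 genes, or 0.373%. Tafa2 was 1 of them. The Ntrk3-leading sums held 319 CPM in litter H, 290 in P_Q, 249 in L, 236 in I and 231 in E_F_G. The sums of the other cells held 180, 104.1, 133.8, 111.8 and 143.3 CPM in the same litters. Every Ntrk3-leading sum lay above every other sum. Tafa2 rose by 1.00 on the log2 scale (SE 0.14, adjusted p = 0.036 with edgeR), in 5 of 5 litters. The Ntrk3-leading side was a single cell in H, L and P_Q, and the call was lost on leaving out any of the 5 litters (log2 change 0.88 to 1.07, adjusted p 0.0798 to 0.164). It was also lost with glabrous cells alone, although the log2 change was 1.09 (adjusted p = 0.0818).

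Tafa1 showed the opposite order in the medians over single cells, where those of Ntrk3- and Ntrk2-leading cells lay within a few counts of 0. Its median was 1.25 CPM in Ntrk3-leading, 3.56 CPM in Ntrk2-leading and 19.7 CPM in Ret-leading cells, and 4 of 18, 6 of 22 and 19 of 28 cells expressed it. In the 3 litters that held both, Ret-leading cells had 34.7 to 40.8 CPM and Ntrk3-leading cells 0 to 20.2 CPM. Between Ntrk3- and Ntrk2-leading cells there was no common direction. The Ntrk3-leading cells were the higher ones in 3 of 5 litters and the lower ones in 2. The test of Ntrk3-leading against all other cells did not call Tafa1 (log2 change -1.68, SE 0.87, adjusted p = 0.567 with edgeR). Tafa3, with medians of 14.3, 10.9 and 1.86 CPM in the same order of cells, was not called either (log2 change -1.05, SE 0.94, adjusted p = 0.778).

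**Figure D2:**
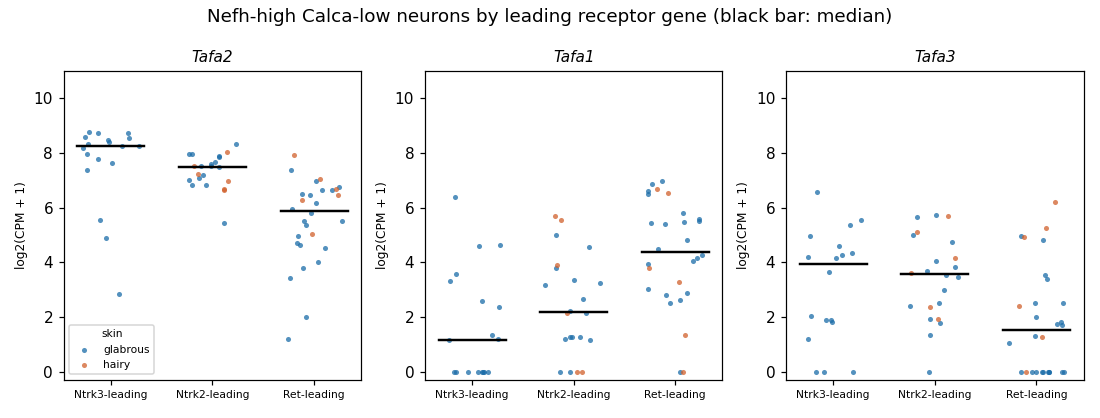
Tafa2, Tafa1 and Tafa3 as log2(CPM + 1) in the 68 Nefh-high Calca-low neurons, divided by leading receptor gene, with 1 point per cell (blue, glabrous; orange, hairy) and the median as a black bar. Tafa2 steps down from Ntrk3-leading (301 CPM) to Ret-leading cells (57.8 CPM), while Tafa1 is highest in Ret-leading cells (19.7 CPM).

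Tafa4 was known from earlier results of these data to mark C-fibre touch neurons and to be higher in hairy skin, so its values are a description without a test. In the 17 C-fibre touch-like cells it ran from 0 to 1457 CPM, with a median of 882. Of these cells, 15 lay between 552 and 1457 CPM, 1 at 58.3 CPM, and 1 had no count, although 3 counts would have been 3.42 CPM there. Both low cells were glabrous cells of litter I. The cells apart from C-fibre touch-like ones reached at most 290 CPM.

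Set against the other Nefh-low cells, C-fibre touch-like cells were higher in Tafa4 in 6 of 6 litters, at 853 ± 287 against 21.1 ± 31.1 CPM (SD over litters, n = 6). Between Nefh-low and Nefh-high sums the Tafa4 ranges were 125.8 to 688 CPM and 4.91 to 30.3 CPM, a log2 change of -4.66 (SE 0.44) for Nefh-high over Nefh-low in 7 litters. Among Nefh-low neurons the Calca-high sums held 0 to 197 CPM (median 8.86) and the Calca-low sums 158 to 976 CPM (median 551), a log2 change of -5.21 (SE 0.79) in 6 litters. The highest Calca-high sum, in litter L, contained a hairy cell with 3675 CPM of Calca, 161 CPM of Zfp521 and 651 CPM of Tafa4. Without that cell the log2 change was -6.41 (SE 0.86).

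The C-fibre touch-like cells also held more glial transcript. The summed level of 6 myelinating Schwann cell genes, such as Pmp22 and Mbp, had a median of 5529 CPM in them (1583 to 22274), against 1454 CPM in Nefh-high Calca-low, 1574 CPM in Nefh-high Calca-high and 3122 CPM in Nefh-low Calca-high cells, and none of the 6 genes had a median of 0. Its part in the Tafa4 result was not tested.

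Outside the C-fibre touch-like class 10 cells had Tafa4 of at least 50 CPM, and they fell into 2 kinds that were noticed after the values were seen. Of the 14 mixed Nefh-low cells, 6 had 83.5 to 290 CPM, and all 6 had Mrgprd at 756 to 2141 CPM. The other 8 mixed cells had no Tafa4 count, and 2 of them had Mrgprd of at least 50 CPM. The other kind was a set of 4 Nefh-high Calca-low cells with 68.5 to 191 CPM of Tafa4, all glabrous, all Ntrk3-leading and from 3 litters, which held 166 to 418 CPM of Tafa2. Over all Nefh-low classes 14 cells had Mrgprd of at least 50 CPM, and their Tafa4 ran from 0 to 878 CPM, with a median of 70.9. Intermediate Tafa4 was thus found in some cells with the non-peptidergic marker, which were not uniform in Tafa4, and in a few Ntrk3-leading A-fibre cells.

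Tafa3 was the least abundant member by the number of cells, and its counts are uncertain. Its gene overlaps Ppm1j, which encodes a protein phosphatase, by 785 bases on the opposite strand, with 370 bases between the nearest annotated exons of the pair, and the library kit does not mark strand. Ppm1j was also the gene whose level followed Tafa3 most closely over the 150 cells (Spearman's rho 0.761), with class medians of 271 CPM in Nefh-high Calca-low, 9.63 CPM in Nefh-high Calca-high, 278 CPM in C-fibre touch-like and 7.01 CPM in Nefh-low Calca-high cells. Whether reads of Ppm1j entered the Tafa3 counts was not tested.

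With that limit, Tafa3 was expressed in 29 of 68 Nefh-high Calca-low cells, 10 of 17 C-fibre touch-like cells and 6 of the other 64 cells. Its median was 11.9 CPM in C-fibre touch-like cells (0 to 76) and 4.48 CPM in Nefh-high Calca-low cells (0 to 93.5). In the Nefh comparison it changed by 0.47 (SE 0.43, adjusted p = 0.47 with edgeR), with overlapping sums. Among Nefh-low neurons, where 1.23% of 11469 genes were called, the Calca-low sums held 2.12 to 33.3 CPM of Tafa3 and the Calca-high sums 0 to 6.20 CPM. It was lower in the Calca-high sum in 5 of 6 litters (log2 change -3.37, SE 1.07), with an adjusted p of 0.177 with edgeR and 0.00149 with DESeq2. Tafa1 and Tafa2 had too few counts in these sums to be tested.

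Tafa5 was the most widespread member. It was expressed in 64 of 68 Nefh-high Calca-low, 31 of 35 Nefh-high Calca-high, 15 of 17 C-fibre touch-like, 12 of 15 Nefh-low Calca-high and 7 of 14 mixed cells. The class medians lay between 23.1 and 35.5 CPM in the first 4 of these and at 6.60 CPM in the mixed cells. In the Nefh comparison its sums ran from 16.2 to 46.3 CPM in Nefh-high and from 8.41 to 54.8 CPM in Nefh-low neurons, and the log2 change was 0.01 (95% interval -0.70 to 0.72, adjusted p = 0.983 with edgeR). Ntrk3-leading and other A-fibre cells differed by 0.12 (95% interval -0.50 to 0.74, adjusted p = 0.933).

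**Figure D3:**
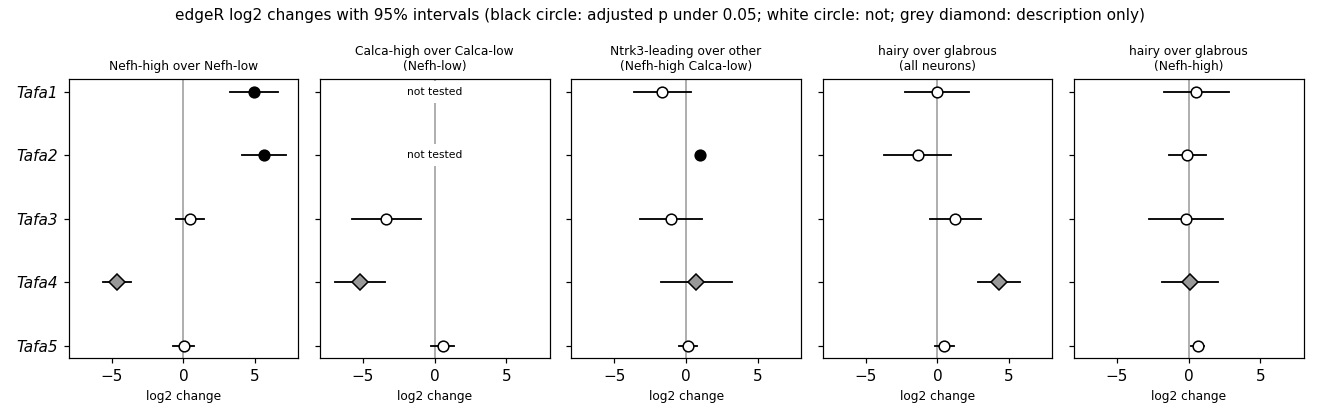
Log2 change of each member in the 5 comparisons of neuron type and skin type, from counts summed per litter, with 95% intervals from edgeR. Black circles passed an adjusted p of 0.05 (Tafa1 and Tafa2 for Nefh, Tafa2 for Ntrk3), white circles did not, and grey diamonds are Tafa4, given as a description.

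Exclusivity was then read from single cells, without the cell of both names. At 10 CPM, 4 cells expressed no member, 25 expressed 1, 52 expressed 2, 46 expressed 3, 19 expressed 4 and 3 expressed all 5. The 4 cells without a member were mixed Nefh-low cells, all glabrous, with 4848 to 10868 detected genes and a pan-neuronal sum of 631 to 1290 CPM. The most frequent combination in Nefh-high Calca-low cells was Tafa1, Tafa2 and Tafa5 (18 of 68 cells), in Nefh-high Calca-high and Nefh-low Calca-high cells Tafa5 alone (11 of 35 and 5 of 15), and in C-fibre touch-like cells Tafa3, Tafa4 and Tafa5 (8 of 17).

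Tafa1 and Tafa4 were the pair with the fewest shared cells, 8 at 10 CPM, which is 15.7% of the Tafa1 cells and 15.4% of the Tafa4 cells. Over all 150 cells, 34.7% expressed Tafa1 and 34.7% Tafa4. Within Nefh-high Calca-low cells the gap was smaller, since 17.2% of the Tafa1 cells expressed Tafa4, against 25% of all cells of that class. None of the 8 was C-fibre touch-like, and no cell held both at 50 CPM, where 16 cells had Tafa1 and 26 had Tafa4. The genes are neighbours on chromosome 6 of GRCm38, the mm10 assembly. Tafa1 lies on the plus strand at chr6:96113154-96657198 and Tafa4 on the minus strand at chr6:96831203-97060413, with 174 kb between their annotated ends.

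Tafa2 and Tafa4 were not exclusive at a low level. They shared 23 cells at 10 CPM, or 28.4% of the Tafa2 and 44.2% of the Tafa4 cells, of which 22 were Nefh-high and none was C-fibre touch-like. In those 23 cells the median was 145.7 CPM for Tafa2 and 22.3 CPM for Tafa4. At 50 CPM the overlap was the 4 Ntrk3-leading cells described above, of 55 cells with Tafa2 and 26 with Tafa4. Tafa1 and Tafa2 shared 37 cells, which is 72.5% of the Tafa1 cells and 45.7% of the Tafa2 cells. Over all 150 cells, 54.7% expressed Tafa2, and Tafa1 and Tafa4 were each expressed in 34.7%. Tafa3 and Tafa4 shared 27, including 10 of the 16 C-fibre touch-like cells with Tafa4.

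**Figure D4:**
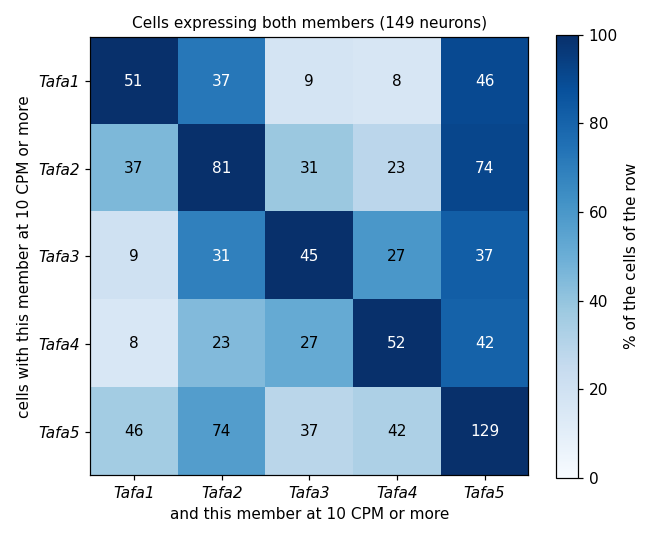
Number of neurons (without the cell of both names) that express both members of a pair at 10 CPM or more, with the number expressing each member on the diagonal and the colour giving the share (%) of the cells of the row. Tafa1 with Tafa4 (8 cells) and Tafa1 with Tafa3 (9 cells) are the smallest overlaps, and Tafa5 overlaps widely with all other members.

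Over the 150 cells, which share litters, plates and cDNA batches, Spearman's rho between members ran from -0.27 (Tafa1 and Tafa4) to 0.43 (Tafa3 and Tafa4). The genes with a level most like that of a member, among 18767 genes detected in at least 20 cells, differed between members. For Tafa2 they were Vamp1 (rho 0.875), Snap25, Vsnl1, Coro6 and Slc17a7 (0.827). Vamp1 and Snap25 encode proteins of the vesicle fusion machinery and Slc17a7 a vesicular glutamate transporter. For Tafa4 they were Cyp4f39 (0.66), Prnp, Gm45941, Kcnk13 and Cd24a, for Tafa1 Rab37 (0.681), Tspyl4, Pcdh18, Slc16a6 and Ifitm10, and for Tafa5 Rarres2 (0.619), Nr4a1, Plpp3, Lpar1 and Matn2. After Ppm1j, those of Tafa3 were Ptprr (0.649), Gm49743, Dusp5 and Myo1a.

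Skin type was compared in 7 litters with at least 2 cells of each skin, with the litter as a block. Over all neurons 12 of 12852 genes (0.0934%) were called with edgeR. Tafa4 is described first, without a test. Its glabrous sums ran from 2.04 to 47.6 CPM, with a median of 6.88, and its hairy sums from 19.2 to 618 CPM, with a median of 203, so that the groups overlapped but the hairy sum was the higher one in 7 of 7 litters. The log2 change was 4.30 (SE 0.66). A sum mixes the number of cells of a kind with the level in each. C-fibre touch-like neurons were 13 of the 45 hairy cells and 4 of the glabrous cells, and with these 17 cells left out the log2 change of Tafa4 was 0.27 (SE 0.79). They held 16 of the 26 cells with Tafa4 at 50 CPM or more, so leaving them out takes away most high values. The part of class numbers in the skin values was therefore not tested. With all classes kept, the log2 change was 2.52 within plate 1 (3 litters) and 5.95 within plate 2 (4 litters).

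Inside the C-fibre touch-like class the 13 hairy cells held 552 to 1457 CPM of Tafa4. The 4 glabrous cells held 0, 58.3, 816 and 959 CPM, 3 of them from litter I and 1 from litter M, which is too few litters for a comparison. Of the glabrous cells, 2 lay within the hairy range and 2 below it. Schwann cell genes also moved with skin type, at a median sum of 3528 CPM in hairy and 1525 CPM in glabrous sums and higher in hairy in 6 of 7 litters. Genes of satellite glia, another glial type, went the other way. Their median sum was 963 CPM in hairy and 1516 CPM in glabrous sums, and they were higher in hairy in 2 of 7 litters. The part of either list in the skin type values was not tested.

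The other members showed no called difference by skin over all neurons with edgeR. Tafa2 had a log2 change of -1.38 (95% interval -3.70 to 0.94), Tafa3 of 1.25 (-0.51 to 3.01), Tafa1 of -0.04 (-2.26 to 2.18) and Tafa5 of 0.49 (-0.14 to 1.12). These intervals leave room for differences of several fold in Tafa1, Tafa2 and Tafa3. Without the C-fibre touch-like cells Tafa3 changed sign, to -0.49.

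Among Nefh-high neurons, sums of at least 1 cell could be paired in 7 litters. Of 12087 genes, edgeR called 0 (0%) at an adjusted p of 0.05, while 729 had an unadjusted p under 0.05 and DESeq2 called 89. Tafa5 was the member with the smallest error. It ran from 14.6 to 29.1 CPM in glabrous and from 17.4 to 71.1 CPM in hairy sums, with medians of 27.8 and 33.2, and was higher in the hairy sum in 7 of 7 litters. The hairy sum was a single cell in A_B, H and O, and in O the values were nearly equal (17.2 CPM glabrous, 17.4 CPM hairy). The log2 change was 0.62 (SE 0.20, 95% interval 0.18 to 1.051), with an adjusted p of 0.657 with edgeR and 0.20 with DESeq2. The difference therefore did not pass the correction over all genes. The kinds of Nefh-high neuron were not balanced between the skins. Ntrk3 was lower in the hairy sum in 6 of 7 litters, at a mean of 57.8 against 215 CPM, and Calca had a mean of 1056 CPM in hairy and 1865 CPM in glabrous sums. Their part in the Tafa5 values was not tested.

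The Nefh-low classes also held cells of both skins. In Nefh-low Calca-high neurons Tafa5 ran from 30.1 to 77.1 CPM in the 9 hairy cells (median 41.02). It ran from 0 to 53.3 CPM in the 6 glabrous cells (median 9.85). In the mixed cells the medians of Tafa5 were 57.7 CPM in 4 hairy and 2.58 CPM in 10 glabrous cells. The mixed cells of the 2 skins differed in kind. The glabrous ones included the 4 cells that expressed no member, with 4848 to 10868 detected genes. Of the 6 mixed cells with Mrgprd and Tafa4 of at least 50 CPM, 5 were glabrous and 1 was hairy. Their part in the Tafa5 values was not tested. In C-fibre touch-like neurons the medians of Tafa5 were 26.1 CPM in 13 hairy and 30.1 CPM in 4 glabrous cells, with means of 31.6 and 30.6 CPM. The ranges overlapped in each class. These are values of cells, not of litters. The skins shared only litter E_F_G in Nefh-low Calca-high, H in mixed and M in C-fibre touch-like cells. Litter and skin therefore cannot be told apart in these classes. For Tafa1, Tafa2, Tafa3 and Tafa4 in Nefh-high neurons the changes were 0.52, -0.10, -0.19 and 0.11, with 95% intervals that reached at least 1.19 to either side or beyond.

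**Figure D5:**
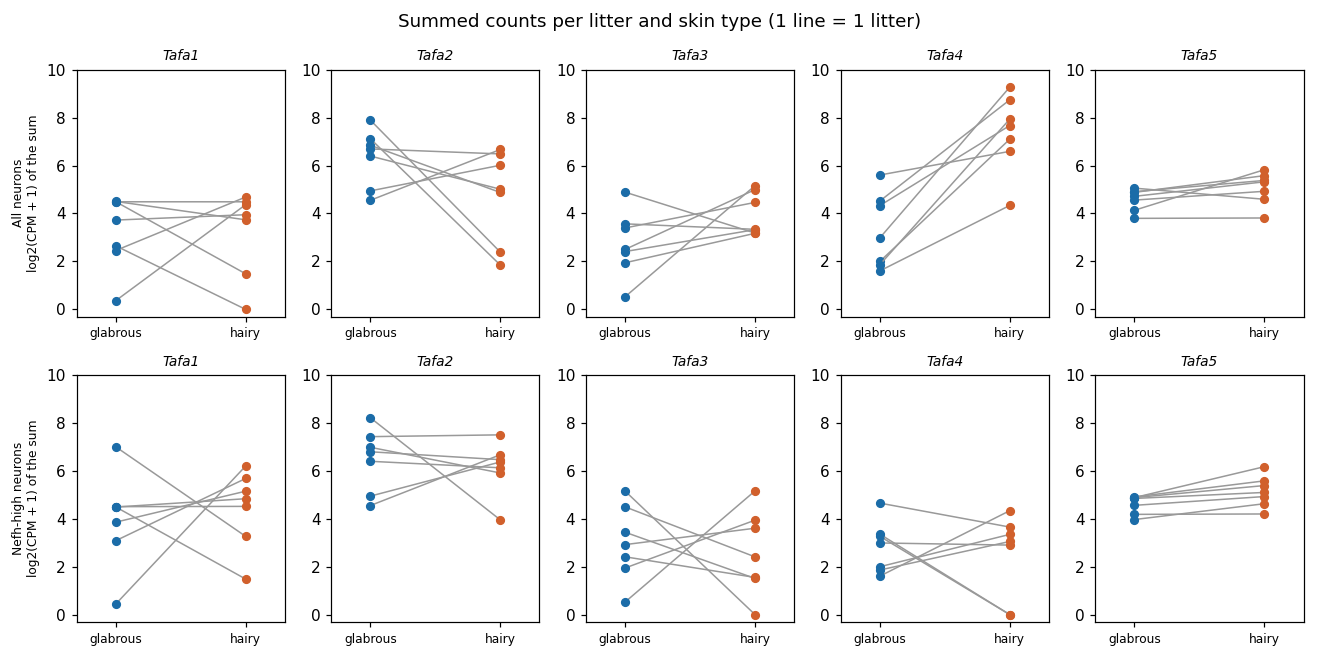
Level of each member in counts summed per litter and skin type, as log2(CPM + 1), for all neurons (top) and Nefh-high neurons (bottom), with 1 line per litter joining its glabrous and hairy sums. Tafa4 is higher in hairy sums in 7 of 7 litters over all neurons (log2 change 4.30) but has no common direction in Nefh-high neurons (0.11), where Tafa5 is higher in 7 of 7 (0.62).

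Age was compared between litters in glabrous cells, with 2 litters of day 4 and 7 of day 5. No gene of 15185 was called with edgeR (0%), where 422 had an unadjusted p under 0.05 and DESeq2 called 3. Tafa5 held 28.5 and 29.1 CPM at day 4 and 12.9 to 32.3 CPM at day 5. Tafa4 held 2.63 and 2.99 CPM at day 4 and 2.04 to 55.4 CPM at day 5. All glabrous cells of day 4 were Nefh-high, whereas those of day 5 included cells of each Nefh-low class. The part of these classes in the age values was not tested. The day 4 values lay inside the day 5 range for each of the 5 members.

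Genes of reported TAFA binding partners were also read in these cells. Between Nefh-high and Nefh-low neurons, where 11.2% of all genes fell, S1pr2 passed among the 4 described here that could be tested. S1pr2, a sphingosine phosphate receptor gene reported as a receptor for TAFA5, fell by 2.30 on the log2 scale (SE 0.57, adjusted p = 0.0174 with edgeR), from a median of 27.4 to 5.07 CPM in the sums, and was lower in 7 of 7 litters. S1pr2 had its highest class median in C-fibre touch-like cells, at 40.2 CPM, with 15 of 17 expressing it. The summed Schwann cell genes also had their highest class median in these cells (5529 CPM), and their part in the S1pr2 values was not tested. Nrxn3, a neurexin gene, had its lowest class median in C-fibre touch-like cells, at 3.14 CPM, against 49.6 CPM in Nefh-high Calca-low cells. Nrxn3, Nrxn2 and Lrp1 were not called between Nefh-high and Nefh-low neurons (log2 change 0.83, -0.15 and -0.44). The formyl peptide receptor genes Fpr1 and Fpr2 reached at most 4.12 and 1.53 CPM in any cell, and Gpr1 at most 8.23 CPM.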

How the data were processed

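Per the labels, polyA RNA of single neurons was amplified in 5 cDNA batches and libraries were made with the Nextera XT kit. The submitters' processing notes name FastQC, cutadapt, Salmon and mm10, with no version or annotation. The authors deposited expected counts from Salmon for each gene in each cell, which are whole numbers and are not normalized. The sources used here do not say whether these were scaled by length. Cells were mapped to litters by the labels. Litter names that join letters were each taken as 1 litter.

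Counts were summed per litter and group (2 or more cells per sum, 1 where too few litters were left) and tested with edgeR 4.0.16 (TMM, filterByExpr, quasi-likelihood F-test, litter as a block, Benjamini-Hochberg over all genes tested) in R 4.3.3. The SE is the log2 change divided by the square root of F. Age had no block. A p-value weighs the change within litters against its variation between litters, and for age the change against the variation of litter sums. Where a sum was 1 cell, that variation also holds the difference between single cells. DESeq2 1.42.0 and limma 3.58.1 were alternatives. The procedure was tested on simulated data. Levels are raw-total CPM. Per litter, glabrous and hairy sums come from the same source, so the litter pairs them. The correlations of their deviations were 0.27 in litter K, 0.26 in H, 0.18 in P_Q, 0.09 in E_F_G, 0.07 in O, -0.02 in C_D and -0.08 in L.

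The members, gates and lists were chosen with earlier results of these data known. The text names the 5 members, the gate genes, genes of reported partners (1 of the list of 8 is not reported here) and, per member, the 5 genes of highest Spearman correlation over all cells. The leading receptor is the gene among Ntrk3, Ntrk2 and Ret with the highest percentile rank in a cell. Classes rest on rebuilt gates. No doublet caller was run. Positions are from GENCODE for GRCm38, which lists the members under their Fam19a names.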

Additional observations from a re-analysis of the deposited data

Results flagged for a closer look

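Of 55 groups of 4 to 10 litter sums checked for a value far from the others, 11 had one. All 11 were the highest value of their group. The rule flags about 1 in 20 groups only where values are independent and normally distributed. The groups here share cells and many sums lie near 0, so the number flagged cannot be set against that rate. Tafa1 was involved in 5 of them. In glabrous Nefh-high sums it held 127.5 CPM in litter A_B, with the next at 21.7, and in all glabrous cells of day 5 it held 95.03 CPM in the same litter, with the next at 21.6. Its Nefh-high sum was 96.03 CPM in litter M (next 29.6), its Nefh-low sum 4.83 CPM in litter P_Q (next 1.70), and its Nefh-low Calca-low sum 2.21 CPM in P_Q, where the other 5 litters were at 0.

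Tafa3 stood apart in 3 groups, at 28.7 CPM in the glabrous sum of litter O (next 10.9), at 34.8 CPM in the hairy Nefh-high sum of C_D (next 14.4) and at 30.9 CPM in the A-fibre cells of litter L that were not Ntrk3-leading (next 12.2). Tafa4 stood apart at 24.2 CPM in the glabrous Nefh-high sum of litter O (next 9.26) and at 196.9 CPM in the Nefh-low Calca-high sum of litter L (next 11.4), the sum with the cell past both gates. Tafa2 did so at 14.2 CPM in the Nefh-low sum of litter I (next 5.64).

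The cell that carried both skin names entered no comparison. It had 2741 CPM of Nefh, 16.3 CPM of Calca, 1440 CPM of Ret and 266 CPM of Ntrk3. Tafa1 was at 109.04 CPM, Tafa2 at 91.5, Tafa4 at 5.01 and Tafa5 at 18.8, each above the 3.76 CPM that 3 counts are worth there, and Tafa3 was at 1.25 CPM.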

How the results depend on the processing

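The share of tested genes that was called was 0.0934% for skin (all), 0% for skin (Nefh-high), 22.7% for Nefh, 1.23% for Calca, 0.373% for Ntrk3 and 0% for age. Alternatives are given where the number of calls moved by over 1.5 times. Each share is of the genes tested in that alternative, which are more without the low-count filter. The cause was not tested. With DESeq2 it was 2.62% for skin (all), 0.736% for skin (Nefh-high), 7.25% for Calca, 3.23% for Ntrk3 and 0.0198% for age. Without the low-count filter it was 1.04% for skin (all), 0.719% for skin (Nefh-high), 3.56% for Calca and 2.34% for Ntrk3. With limma on mean log2 values it was 0.163% for skin (all), 0.00827% for skin (Nefh-high), 1.94% for Calca and 1.08% for Ntrk3. Without the litter block that pairs the sums it was 0.0579% for skin (Nefh-high) and 0.965% for Ntrk3. With at least 1 cell per sum it was 0.00785% for skin (all). At a Nefh gate of 250 CPM it was 0.0559% for Ntrk3. At a Nefh gate of 1000 CPM it was 2.26% for Calca and 0.0235% for Ntrk3. With glabrous cells only it was 1.31% for Nefh and 0.243% for Ntrk3. Without C-fibre touch-like cells it was 0% for skin (all). Without cells under 10000 detected genes it was 2.66% for Calca. Within plate 1 it was 0% for skin (all), 4.41% for Nefh, 0.018% for Calca and 0% for Ntrk3. Within plate 2 it was 0% for skin (all), 9.29% for Nefh and 0.694% for Calca. With each litter left out in turn it ran from 0% to 0.116% for skin (all), 0% to 0.0165% for skin (Nefh-high), 0.272% to 1.07% for Calca, 0.00806% to 0.474% for Ntrk3 and 0% to 0.00675% for age.

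No called change of a member turned its sign. The log2 changes that did were not called, and their values are as follows. With DESeq2 there were changes by skin (Nefh-high) of -0.12 for Tafa4 and by Ntrk3 of -0.21 for Tafa4. With limma on mean log2 values there were changes by skin (Nefh-high) of 0.30 for Tafa2 and 0.29 for Tafa3, by Ntrk3 of -0.57 for Tafa4 and by age of -0.60 for Tafa1 and -0.087 for Tafa2. Without the litter block that pairs the sums there were changes by skin (all) of 0.091 for Tafa1 and by Nefh of -0.14 for Tafa5. With at least 2 cells per sum there were changes by skin (Nefh-high) of -0.069 for Tafa1, 0.58 for Tafa2 and 1.19 for Tafa3. At a Nefh gate of 250 CPM there were changes by skin (Nefh-high) of 0.068 for Tafa2 and -0.52 for Tafa4 and by Ntrk3 of -0.44 for Tafa4 and -0.036 for Tafa5. At a Nefh gate of 1000 CPM there were changes by skin (Nefh-high) of -0.41 for Tafa4. In hairy cells there were changes by age of -0.21 for Tafa1 and -0.083 for Tafa2. Without C-fibre touch-like cells there were changes by skin (all) of 0.33 for Tafa1 and -0.49 for Tafa3. Without cells under 10000 detected genes there were changes by Nefh of -0.032 for Tafa5. Within plate 1 there were changes by skin (all) of 0.0299 for Tafa1, by skin (Nefh-high) of -0.48 for Tafa1, 0.22 for Tafa2, 0.19 for Tafa3 and -0.75 for Tafa4, by Nefh of -0.23 for Tafa3 and by Ntrk3 of 0.0399 for Tafa3. Within plate 2 there were changes by Nefh of -0.36 for Tafa5 and by Ntrk3 of -0.14 for Tafa5. With each litter left out in turn, changes that crossed 0 ran from -0.92 to 0.29 for Tafa1 by age, -0.13 to 1.14 for Tafa1 by skin (Nefh-high), -0.65 to 0.47 for Tafa1 by skin (all) and -0.49 to 0.36 for Tafa2 by skin (Nefh-high), and from -1.001 to 0.46 for Tafa3 by skin (Nefh-high), -0.47 to 0.62 for Tafa4 by skin (Nefh-high), -0.17 to 0.29 for Tafa5 by Nefh and -0.0065 to 0.35 for Tafa5 by Ntrk3.

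Tafa1 and Tafa2 stayed higher in Nefh-high neurons in 18 of 18 alternatives each and passed in 16 (log2 change 2.46 to 5.91 and 3.10 to 6.73). Tafa2 stayed higher in Ntrk3-leading cells in 16 of 16 and passed in 5 (0.84 to 1.28, adjusted p 8.1e-07 to 0.402). Tafa5 in Nefh-high neurons stayed higher in hairy sums in 18 of 18 and passed in none (0.34 to 0.71). Without the block, the log2 change of Tafa4 between Calca-high and Calca-low sums, which is a description, was -3.97. The pairing changed no call of the other members. The Calca comparison within glabrous cells had too few litters and gave no value. The removal of the cell past both the Calca and the Zfp521 gate was chosen after seeing the data. Sums of 1 cell and 5 to 7 litters limit the precision, and low members lie within a few counts of 0.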
